A study of Rattus norvegicus with 36 samples.

Results

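The genes described here are 37 markers of macrophages and other leukocytes, listed by symbol for what each is known to do. The list was written with earlier results of these data known. The genes were followed in the soleus muscle of rats after a contusion of the spinal cord. Of the 37, 35 had a probe set with a single gene symbol, out of 14217 genes measured on the array in this way and 31042 probe sets tested. Msr1 and Spi1 were not analysed here. A gene with several probe sets is given by the brightest of them, judged by its mean log2 signal across the 36 arrays without regard to group. The mean log2 signal of Itgam and Fcgr3a was below the 40th percentile of all probe sets (6.73) and that of the others was above it, and no member was left out for a low signal.

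All rats were adult female Sprague Dawley, 16 weeks old at the start. The control group (CTR) was uninjured, the groups SCI3d, SCI8d and SCI14d were studied 3, 8 and 14 days after a moderate contusion at thoracic segment T8, and SCI8d+TM and SCI14d+TM were contused in the same way and trained on a treadmill from day 7. SCI8d+TM had 3 training sessions, SCI14d+TM had 2 sessions a day on 5 days, each session lasted 20 min, and muscle was taken 8 h after the last. Each of the 6 groups had 6 rats, and the left soleus of each rat gave 1 array, so the spread between arrays of a group is that between rats. The contused rats also had anaesthesia, a laminectomy and early analgesics including ketoprofen, and the experimental animals were given a dough diet. The paper describes no sham-operated group, so the injury and this care cannot be told apart against controls. Whole muscle was measured and no cells were sorted.

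Macrophages are phagocytes that live in the connective tissue between muscle fibres and that monocytes from the blood can add to. They carry receptors for the tail of antibodies (Fc receptors), whose signal passes through adaptors with an ITAM motif, and they make C1q, the part of the complement system that binds marked targets and dying cells. Pattern recognition receptors such as the Toll-like receptors sense products of microbes and damaged tissue, and an oxidase in the membrane makes superoxide. Cells that present antigen load peptides from engulfed protein on MHC class II molecules, called RT1-B and RT1-D in the rat, with the help of the invariant chain Cd74 and the loading factor RT1-DM. In muscle, macrophages are known for clearing damaged fibres and for guiding repair.

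The values were linear array signals scaled by the authors to 1 trimmed mean (800.3 to 800.4 in the values tested), with array medians of 166.4 to 234.3. The 11 genes of slow fibres and muscle fixed as a tissue check were all above the 40th percentile, and 0 of them were called in any comparison. Markers of other cells in muscle were also read. Of 12 T cell genes measured, 4 were above the 40th percentile, as were 3 of 7 neutrophil genes, 0 of 3 dendritic cell genes, 4 of 5 red blood cell genes and 10 of 10 fibroblast genes. An array of each group stood above the others in these markers, which were highest on CTR replicate 3 for 21 of the 35 members, on SCI3d replicate 2 for 23, on SCI8d replicate 4 for 25, on SCI14d replicate 4 for 27, on SCI8d+TM replicate 2 for 29 and on SCI14d+TM replicate 3 for 21. CTR replicate 3 and SCI14d replicate 4 also had high ratios of the 3' to the 5' GAPDH probe sets (1.61 and 1.35, against a median of 1.12 over all arrays), which is a measure of RNA integrity and labelling. The third array of high ratio, SCI14d+TM replicate 1 (1.33), was highest in its group for 0 of the 35 members and had its lowest mean over them. The part of RNA quality in these high arrays was not tested.

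Changes in these markers were small and few against the spread between rats. Cd163 rose at 3 days, 3 of the 6 MHC class II genes and both Toll-like receptors rose between 3 and 14 days, and Cd163, Cd68, Tlr4, C1qa, C1qc and Fcgr2b were higher in SCI8d+TM than in controls. Of these calls, only those of the class II genes Cd74 and RT1-Da and that of C1qa were kept with every array left out in turn. With all arrays in the fit no member was called lower in any comparison. Over all probe sets, 5109 of 31042 were called in SCI3d against controls, of which 2241 were higher. Between trained and untrained rats of the same day no member was called, beside 0% of all probe sets on day 8 and 0.00322% on day 14. In whole muscle, more cells of a type and more RNA per cell cannot be told apart. Fold changes are differences of group means of the log2 signal with their standard error (SE), and a gene was called at an adjusted p under 0.05 in limma, adjusted over all 31042 probe sets.

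**Figure D1:**
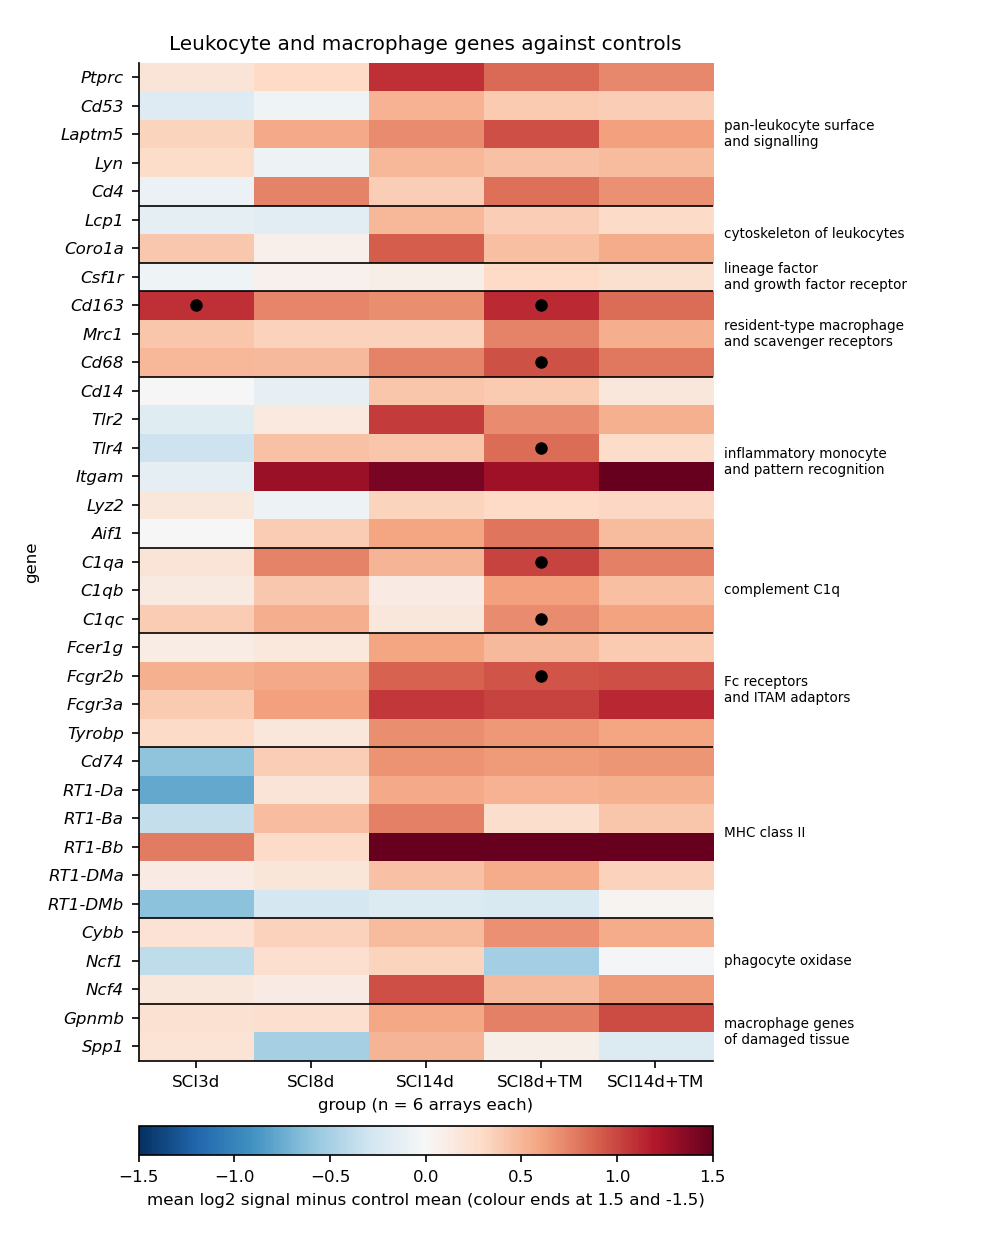
Mean log2 signal of the 35 members in each injured or trained group minus the control mean, 6 arrays per group, with genes in rows by role and groups in columns. Colour runs from lower (blue) to higher (red) with its ends at -1.5 and 1.5, and a dot marks a gene called against controls at an adjusted p under 0.05, which was 1 gene in SCI3d and 6 in SCI8d+TM.

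Against controls, 22 of the 35 members were higher on average at 3 days and 1 was called higher, beside 7.22% of all probe sets called higher. The median log2 fold change of the members was 0.16, beside -0.04 over all probe sets. At 8 days 28 members were higher on average with a median of 0.29 (0.04 over all probe sets), and limma called 0 of them, beside 6.29% of all probe sets called in either direction. At 14 days 34 members were higher on average with a median of 0.57 (0.08 over all), and limma again called 0, beside 3.19% of all probe sets. At an unadjusted p under 0.05 limma passed 5 members at 8 days, beside 20.6% of all probe sets, and 13 at 14 days, beside 17.7%. The methods' t-test passed 4 (20.2% of all probe sets) and 6 (16.9%). After adjustment the share of members called was below that of all probe sets on each of the 3 days. At an unadjusted p in limma it was below on day 3 (4 members, beside 27.6% of all probe sets) and day 8, and above on day 14. In the methods' t-test the share on day 14 was near that of all probe sets. The members vary together within groups, so they do not pass independently. The widest shift on day 14 belonged to RT1-DMb on the low side (-0.21) and RT1-Bb on the high side (2.70), and RT1-Bb is set out on its own further on. Of all probe sets, 47.1% were higher on average at 3 days, 53.1% at 8 days and 57.9% at 14 days. The 3 comparisons share the 6 control arrays.

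The mean log2 signal over the 35 members was also taken for each array, relative to the control mean. It ran from -0.31 to 0.39 in controls, with replicate 3 at the top, and averaged 0.09 ± 0.54 in SCI3d, 0.29 ± 0.38 in SCI8d, 0.64 ± 0.52 in SCI14d, 0.64 ± 0.49 in SCI8d+TM and 0.58 ± 0.40 in SCI14d+TM (SD, n = 6 each). The arrays of all groups overlapped the range of the controls. SCI3d replicate 2 was at 0.96 and the next array of its group at 0.42, and SCI14d replicate 4 was at 1.54 with the next at 0.73. These means are a description, since the genes were chosen with earlier results known.

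**Figure D2:**
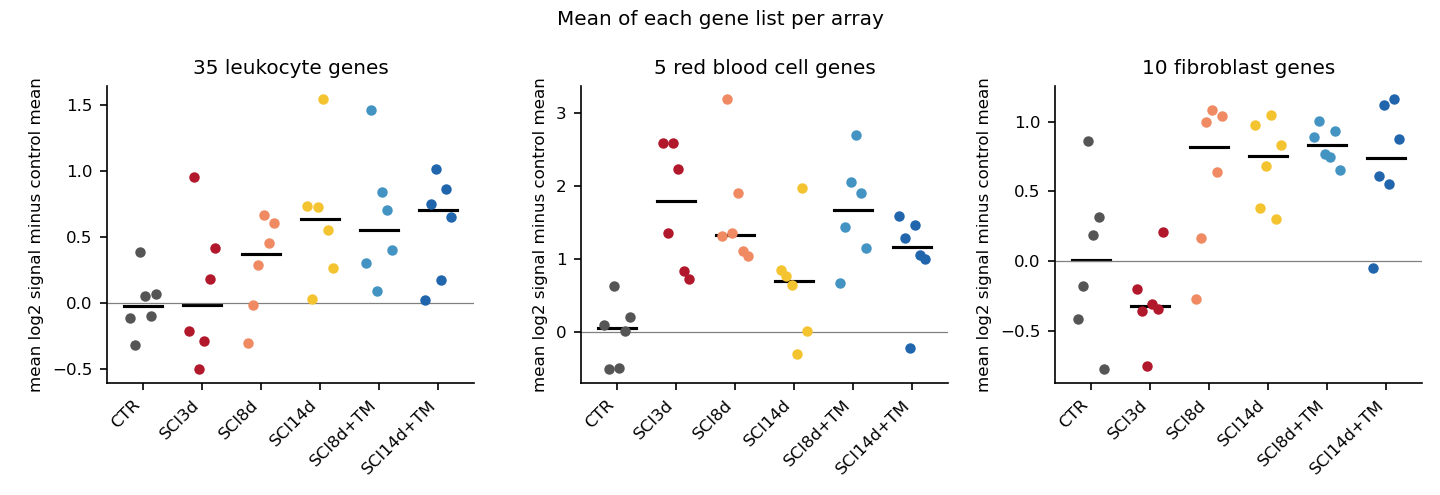
Mean log2 signal minus the control mean for each of the 36 arrays, for the 35 leukocyte and macrophage genes, 5 red blood cell genes and 10 fibroblast genes. Each point is 1 array and the bars are group medians; the leukocyte genes reached 1.54 on SCI14d replicate 4, whereas the red blood cell genes were higher in every SCI3d and SCI8d array than in any control.

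Among the receptors that mark resident macrophages, Cd163 takes up haemoglobin bound to haptoglobin. Its signal was 324 to 944 in controls (median 768), 777 to 2608 in SCI3d (1375), 712 to 2122 in SCI8d (1096) and 637 to 2187 in SCI14d (1111). The trained groups had 802 to 2426 (1426) in SCI8d+TM and 766 to 1696 (1231) in SCI14d+TM. CTR replicate 4 was the lowest of all arrays, and each injured group overlapped the controls. Cd163 rose by 1.09 on the log2 scale at 3 days (SE 0.31, adjusted p = 0.0133 in limma), and its difference was 0.73 at 8 days (adjusted p = 0.169) and 0.70 at 14 days (adjusted p = 0.229). Without CTR replicate 4 the difference at 3 days was 0.89 (adjusted p = 0.0514) and without SCI3d replicate 2 it was 0.92 (adjusted p = 0.0532), neither of which passed. Red blood cell genes were higher in the same comparison: Slc4a1, the anion exchanger of the red cell membrane, rose by 2.58 and Ahsp, which stabilises free alpha globin, by 2.52. The mean of the 5 red blood cell genes was -0.50 to 0.64 in controls and 0.73 to 2.60 in SCI3d, with no overlap. Hmox1, which breaks down haem, rose by 1.35 at 3 days (SE 0.35, adjusted p = 0.00544). The part of red blood cells in the Cd163 signal was not tested.

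Mrc1, the mannose receptor of resident macrophages, had the highest mean of the scavenger receptors. It was 1242 to 2625 in controls (median 2083) and 1614 to 6123 in SCI3d (2539), where replicate 2 stood alone above 2838. The groups overlapped and the log2 difference was 0.42 (SE 0.28, adjusted p = 0.359). Csf1r, the receptor for the growth factor on which macrophages depend, was 1282 to 2477 in controls (median 1641), 1175 to 3433 in SCI3d (1403), 1383 to 2236 in SCI8d (1698) and 899 to 3970 in SCI14d (1671). Its log2 differences from controls ran from -0.06 to 0.30 over the 5 groups, with adjusted p from 0.489 to 0.917, and it had no call in any comparison.

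Genes of leukocyte surface, signalling and cytoskeleton had no call. Cd53, a tetraspanin of leukocyte membranes, was 772 to 2066 in controls (median 929), 560 to 2323 in SCI3d (948), 561 to 1646 in SCI8d (1091) and 857 to 2691 in SCI14d (1606). All groups overlapped, and its difference from controls was -0.20 at 3 days (adjusted p = 0.756) and 0.52 at 14 days (adjusted p = 0.411). Lcp1, which bundles actin in leukocytes, was 1037 to 2682 in controls (1372), 715 to 2965 in SCI3d (1368) and 1038 to 3825 in SCI14d (2085), with a difference of 0.49 at 14 days (adjusted p = 0.422). The 5 genes of leukocyte surface and signalling (Ptprc, Cd53, Laptm5, Lyn and Cd4) were all higher on average at 14 days, by 0.37 to 1.10 with a median of 0.52, and 0 of them passed (adjusted p from 0.113). The upper end was Ptprc, the phosphatase CD45.

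Lyz2, the lysozyme of monocytes and macrophages, had a signal of 6997 to 22188 in controls (median 11335), 9619 to 31804 in SCI3d (12860), 6617 to 17970 in SCI8d (13019) and 8114 to 21292 in SCI14d (18096). All groups overlapped, and its difference from controls was 0.33 at 14 days (SE 0.28, adjusted p = 0.584). The receptor adaptor Fcer1g, the gamma chain that Fc receptors signal through, was 1702 to 4167 in controls (2462), 1929 to 6466 in SCI3d (2570) and 2167 to 7336 in SCI14d (4048), with a difference of 0.60 at 14 days (SE 0.30, adjusted p = 0.293). Fcgr2b, the Fc receptor that holds cells back, came nearest to a call among the members at 14 days, with 318 to 876 in controls (507) and 517 to 2498 in SCI14d (894). The groups overlapped, and the difference of 0.89 (SE 0.29) had an adjusted p of 0.0817 in limma. It passed without CTR replicate 3 and without SCI14d replicate 2.

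Of the oxidase genes, Cybb, its membrane subunit, was 1387 to 2197 in controls (median 1691), 1179 to 4627 in SCI3d (1560), 1096 to 3371 in SCI8d (2223) and 1523 to 3987 in SCI14d (2426). The control arrays lay closer together than the injured ones, and the difference at 14 days was 0.47 (SE 0.31, adjusted p = 0.445). Gpnmb, a glycoprotein of macrophages that have taken up debris, was 1372 to 4188 in controls (2601) and 2205 to 5571 in SCI14d (4373). Its difference was 0.59 at 14 days (adjusted p = 0.417). Spp1 (osteopontin), the other gene of this kind, was 714 to 2306 in controls (1395) and 682 to 13479 in SCI14d (1575), where replicate 4 held the highest value and the next array was at 1974. SCI14d replicate 4 also had the lowest mean of the 11 muscle genes of all arrays (-0.996 on the log2 scale relative to the control mean), and the part of the muscle's makeup in this array was not tested. The choice of Spp1 was made with its values known.

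Of the 6 MHC class II genes, 3 had the clearest course between days among the members: Cd74, RT1-Da and RT1-Ba. RT1-Bb, RT1-DMa and RT1-DMb were not called between 3 and 14 days. RT1-Da, RT1-Ba and RT1-Bb are shown with the start of their promoters. Class II genes are known to share a control region. Its element nearest the start is the Y box, an ATTGG sequence bound by NF-Y. The 150 bases before the annotated start are given 5′ to 3′ on the gene's strand in the GRCr8 RefSeq reference, with ATTGG in capitals. RT1-Da lies at chr20:4515265-4515414 on the plus strand, RT1-Ba at chr20:4576907-4577056 on the plus strand and RT1-Bb at chr20:4604119-4604268 on the minus strand.
RT1-Da: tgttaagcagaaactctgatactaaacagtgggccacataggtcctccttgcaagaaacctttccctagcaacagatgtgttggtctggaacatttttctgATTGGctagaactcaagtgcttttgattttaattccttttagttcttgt
RT1-Ba: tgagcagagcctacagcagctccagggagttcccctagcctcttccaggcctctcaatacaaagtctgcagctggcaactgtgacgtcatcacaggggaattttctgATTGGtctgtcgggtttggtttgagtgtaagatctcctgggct
RT1-Bb: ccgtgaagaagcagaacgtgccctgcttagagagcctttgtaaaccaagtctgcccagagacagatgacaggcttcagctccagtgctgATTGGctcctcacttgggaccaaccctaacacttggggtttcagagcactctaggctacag

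The first base of ATTGG lay 49 bases before the start in RT1-Da, 43 in RT1-Ba and 61 in RT1-Bb. Windows of 300 bases, from 250 before to 50 after the start, were found for 25 of the 35 members. ATTGG, read on both strands, was in all 5 class II windows (RT1-Da, RT1-Ba, RT1-Bb, RT1-DMa and Cd74, the last on the other strand), in 13 of the 25 member windows (52.0%) and in 37.5% of all 33469 windows of this length. The purine box GAGGAA, the core bound by PU.1 in myeloid promoters, was in 16 of 25 member windows (64.0%) and in 27.6% of all windows. TGACTCA, an AP-1 site, was in 2 of the 25 (8.0%) against 4.63% of all, and TATAAA was in 2 (8.0%) against 14.2% of all. None of these motifs contains another. These are matches of letters in a reference genome, and binding was not measured.

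Cd74, the invariant chain that holds class II molecules until peptide is loaded, had a signal of 3834 to 9223 in controls (median 5289) and 2893 to 4513 in SCI3d (3660). It was 4206 to 10395 in SCI8d (7042) and 5479 to 17116 in SCI14d (8189). The day 3 arrays sat at the low end of the controls, and every SCI14d array was above every SCI3d array. Between 3 and 14 days Cd74 rose by 1.27 on the log2 scale (SE 0.25, adjusted p = 0.000939), a call that held in all 25 alternatives. Between 3 and 8 days it rose by 0.97 (SE 0.25, adjusted p = 0.0160), which did not pass without SCI8d replicate 3 (adjusted p = 0.0537) or replicate 6 (adjusted p = 0.0515). Its difference from controls at 3 days was -0.60 (adjusted p = 0.108). It was called lower in 2 of 25 alternatives. In limma on SCI3d and CTR alone the adjusted p was 0.0416, and the methods' t-test without adjustment also passed.

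RT1-Da, the alpha chain of the class II molecule RT1-D, was 2537 to 6581 in controls (median 2982), 1480 to 3059 in SCI3d (2134), 2212 to 5900 in SCI8d (4699) and 2972 to 13191 in SCI14d (5120). A single SCI3d array reached above the lowest SCI14d array. Between 3 and 14 days it rose by 1.34 (SE 0.31, adjusted p = 0.00366), and it passed with every array left out in turn and in 24 of 25 alternatives, the exception being the methods' t-test after adjustment (adjusted p = 0.0645). Between 3 and 8 days the difference was 0.97 (adjusted p = 0.0520), and it passed without SCI3d replicate 6, SCI8d replicate 1 or SCI8d replicate 2. Against controls the difference at 3 days was -0.77 (adjusted p = 0.0874), and it passed in the same 2 alternatives, at an adjusted p of 0.0355 in limma on these groups alone.

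RT1-Ba, the alpha chain of RT1-B, was 587 to 1466 in controls (median 840), 371 to 901 in SCI3d (684), 683 to 1921 in SCI8d (1122) and 791 to 4123 in SCI14d (1177). The groups overlapped, and replicate 4 stood alone at the top of SCI14d. Between 3 and 14 days RT1-Ba rose by 1.11 (SE 0.32, adjusted p = 0.0176), and the call was lost without SCI3d replicate 3 (adjusted p = 0.0531) and without SCI14d replicate 4 (0.80, adjusted p = 0.0704). Its 3 other probe sets had differences of 1.74, 0.38 and 0.62 and none was called. Of the 6 class II genes, RT1-DMa and RT1-DMb, which exchange peptides on class II molecules, were not called between 3 and 14 days (0.32 and 0.40, adjusted p = 0.452 and 0.401). At 3 days RT1-DMb was -0.61 from controls (adjusted p = 0.160), and without SCI3d replicate 2 it was called lower (-0.83, adjusted p = 0.0451).

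**Figure D3:**
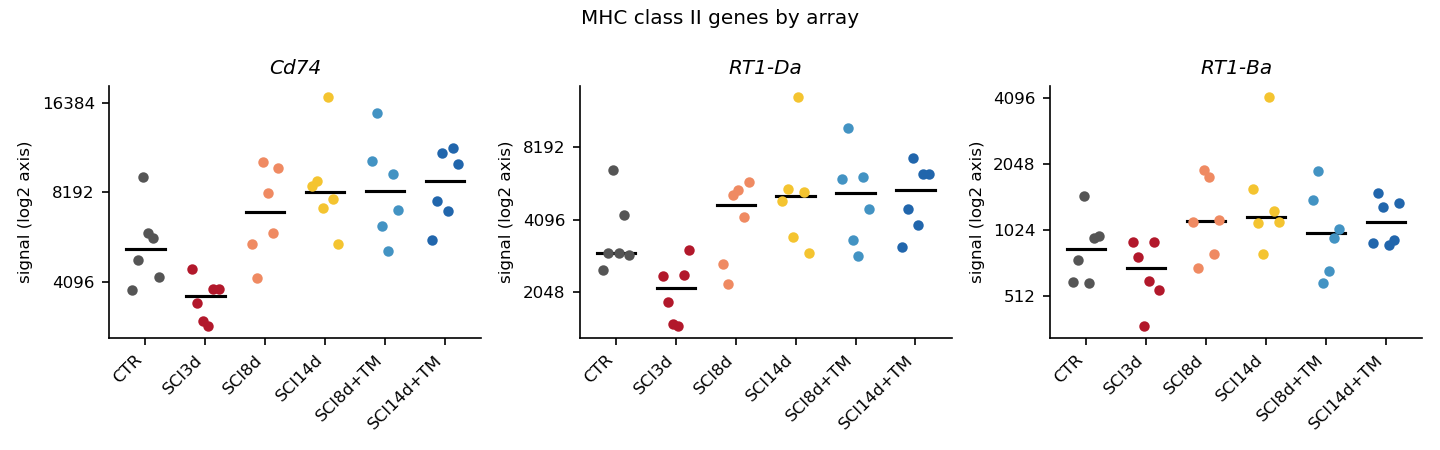
Signal of Cd74, RT1-Da and RT1-Ba on each of the 36 arrays, on a log2 axis, with 6 arrays per group and bars at the group medians. For Cd74 the SCI3d arrays (2893 to 4513) lie below all SCI14d arrays (5479 to 17116) and overlap the controls and SCI8d.

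RT1-Db1, the beta chain partner of RT1-Da and the only other class II pathway gene of 7 measured that was called, rose by 0.97 between 3 and 8 days (SE 0.29, adjusted p = 0.0319) and by 1.22 between 3 and 14 days (SE 0.29, adjusted p = 0.00396). The median of these 7 genes between 3 and 14 days was 0.15, beside 0.13 over all probe sets. The trained groups were at 5179 to 15133 (SCI8d+TM) and 5637 to 11523 (SCI14d+TM) for Cd74, which overlapped the untrained rats of the same day throughout.

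Between 3 and 14 days, 31 of the 35 members were higher on average and 5 were called higher, which are Cd74, RT1-Da, RT1-Ba, Tlr2 and Tlr4, beside 7.99% of all probe sets called higher. Their median log2 fold change was 0.42, beside 0.13 over all probe sets. Between 3 and 8 days 23 members were higher on average and 1, Cd74, was called higher, beside 3.66% of all probe sets, with a median of 0.13 beside 0.08. With each array centred on its median, which lowered the median of all probe sets by 0.23 between 3 and 14 days and by 0.16 between 3 and 8 days, the members higher on average were 28 and 15, so the direction of the weaker differences between 3 and 8 days depended on the scaling. After centring, Cd74, RT1-Da and RT1-Ba kept their calls between 3 and 14 days and the Toll-like receptors did not (adjusted p = 0.0918 for Tlr2 and 0.172 for Tlr4). Of all probe sets, 60.0% were higher on average between 3 and 14 days and 57.1% between 3 and 8 days. These comparisons share the 6 SCI3d arrays. In them the fibroblast genes moved as well, with 6 of 10 called higher between 3 and 8 days and 6 between 3 and 14 days, and their mean log2 signal relative to controls ran from -0.76 to 0.21 in SCI3d, from -0.28 to 1.08 in SCI8d and from 0.30 to 1.05 in SCI14d. All 7 neutrophil genes were higher on average between 3 and 14 days (median 1.79, 1 called, with list means of -1.83 to 0.55 in SCI3d and -0.72 to 3.18 in SCI14d). All 5 red blood cell genes were lower on average (median -0.77, list means of 0.73 to 2.60 and -0.29 to 1.98), of which Slc4a1 was called (-1.80, adjusted p = 0.0289). All 11 muscle genes were lower on average (median -0.33, 0 called, list means of -0.29 to 0.42 and -0.996 to 0.18). The part of these other tissues and cells in the class II signal was not tested.

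SCI3d replicate 2 was high for some roles and not for others. Against the mean of the other 5 arrays of its group, it was higher by a median of 1.56 for the 5 leukocyte surface genes, 1.41 for the 3 scavenger receptors, 1.47 for the 6 genes of inflammatory monocytes and 1.47 for the 3 oxidase genes. For C1q the median was 0.12 and for class II 0.12, with Cd74 at -0.05 and RT1-Da at -0.16. Within class II, RT1-DMa and RT1-DMb were higher, at 1.27 and 1.33. Of the 2 genes of damaged tissue, Gpnmb was at 0.64 and Spp1 at -0.71, and single genes of the high roles also stayed near or below their group, such as Cd4 at 0.26. Fcgr3a was at -0.58, while the 4 Fc receptor and adaptor genes had a median of 1.17. SCI14d replicate 4 differed from that pattern, with all 6 class II genes higher by a median of 1.38 and C1q by 1.22. Both arrays are a single rat each, and they describe these rats.

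Tlr2, the receptor for bacterial lipopeptides, was 127 to 327 in controls (median 194), 72.4 to 570 in SCI3d (168) and 199 to 711 in SCI14d (492). The groups overlapped because SCI3d replicates 2 and 6 reached into SCI14d. It rose by 1.23 between 3 and 14 days (SE 0.42, adjusted p = 0.0487), and the call was lost in 8 of the 12 fits that left out 1 array, remaining only without SCI3d replicate 2, SCI3d replicate 6, SCI14d replicate 1 or SCI14d replicate 2. Tlr4, the endotoxin receptor, was 128 to 251 in controls (202), 125 to 215 in SCI3d (143), 176 to 336 in SCI8d (279) and 199 to 369 in SCI14d (228). It rose by 0.73 between 3 and 14 days (SE 0.25, adjusted p = 0.0473), with the call lost in 8 of 12 such fits, and kept without SCI3d replicate 2 or SCI14d replicates 2, 3 or 6. Both calls lie at the threshold.

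After 3 sessions of treadmill training, 32 of the 35 members were higher on average in SCI8d+TM than in SCI8d, with a median log2 fold change of 0.38 beside 0.03 over all probe sets. Limma called 0 of them, beside 0% of all probe sets, and also 0 passed at an unadjusted p under 0.05, beside 4.33% of all probe sets in limma and 4.03% in the methods' t-test. The smallest adjusted p was 0.99977. After training to day 14, 14 members were higher on average than in SCI14d (18 with median centring), with a median of -0.04 beside -0.03, and limma called 0, beside 0.00322% of all probe sets. Again 0 members passed at an unadjusted p, beside 5.96% in limma and 5.75% in the methods' t-test. The difference of the training effects on the 2 days had 29 members lower on average, a median of -0.40 beside -0.06 over all, and 0 called in limma, beside 0% of all probe sets. At an unadjusted p 0 passed as well, beside 5.34%. Of all probe sets, 54.6% were higher on average with training on day 8, 45.8% on day 14 and 44.2% in the difference of the effects.

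Against controls, 33 of the 35 members were higher on average in SCI8d+TM, with a median of 0.65 beside 0.08 over all probe sets, and 6 were called higher, beside 6.48% of all probe sets called higher. With each array centred on its median, which lowered the median of all probe sets by 0.15 here, 3 of the 6 kept their call (Cd163, Tlr4 and C1qa). In SCI14d+TM 33 were also higher on average, with a median of 0.55 beside 0.04, and limma called 0, beside 0.358% of all probe sets. At an unadjusted p under 0.05, limma passed 18 members in SCI8d+TM, beside 26.5% of all probe sets, and 10 in SCI14d+TM, beside 12.1%. The methods' t-test passed 13 in each, beside 27.3% and 14.6%. Of all probe sets, 56.0% were higher on average in SCI8d+TM and 54.5% in SCI14d+TM. These 2 comparisons share the control arrays with those of the untrained groups.

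C1qa, the A chain of C1q, was 1339 to 2828 in controls (median 2373), 2390 to 5188 in SCI8d (4103) and 3233 to 6273 in SCI8d+TM (4958). Every SCI8d+TM array was above every control array, and the untrained median lay between. C1qa was higher than in controls by 1.02 in SCI8d+TM (SE 0.28, adjusted p = 0.0145), in each of 25 alternatives, and by 0.75 in SCI8d (adjusted p = 0.104, which passed without SCI8d replicate 1). C1qc, the C chain, was 1819 to 3158 in controls (2949), 3137 to 5319 in SCI8d (3982) and 3537 to 5691 in SCI8d+TM (4679). Its SCI8d+TM arrays did not overlap the controls either, and the difference of 0.71 (SE 0.24, adjusted p = 0.0494) was lost in 10 of 12 fits that left out 1 array, being kept only without SCI8d+TM replicate 1 or 3. C1qb, the B chain, differed by 0.61 (adjusted p = 0.110). CTR replicate 4 was the lowest control for all 3 chains.

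Cd68, a glycoprotein of macrophage lysosomes, was 412 to 654 in controls (median 528), 330 to 1096 in SCI8d (826) and 586 to 1962 in SCI8d+TM (975). SCI8d+TM overlapped the controls with its lowest array, and it was higher than controls by 0.96 (SE 0.32, adjusted p = 0.0446), a call that was kept only without CTR replicate 3, SCI8d+TM replicate 1 or SCI8d+TM replicate 3 among the 12 fits. Tlr4 was 235 to 429 in SCI8d+TM (median 356), with 1 control array inside that range. It was higher by 0.84 (SE 0.25, adjusted p = 0.0231), which was lost without CTR replicate 2, CTR replicate 4, SCI8d+TM replicate 2 or SCI8d+TM replicate 5, with an adjusted p up to 0.0611. Ly96, the protein that binds endotoxin beside Tlr4, was higher by 0.93 (SE 0.25, adjusted p = 0.0115) and was the only one of 7 other Toll-like receptor genes called.

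Fcgr2b was 525 to 1141 in SCI8d (median 768) and 671 to 1392 in SCI8d+TM (1035), with the upper controls inside that range. It was higher than controls by 0.94 (SE 0.29, adjusted p = 0.0287), and the call was lost in 7 of 12 fits without 1 array and kept without CTR replicates 3, 4 or 5 or SCI8d+TM replicates 1 or 3. Cd163 was higher by 1.12 (SE 0.31, adjusted p = 0.0169), not passing without CTR replicate 4 (adjusted p = 0.0556) or SCI8d+TM replicate 6 (adjusted p = 0.0530). Of all 6 calls in SCI8d+TM, C1qa alone stood with every array left out in turn.

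**Figure D4:**
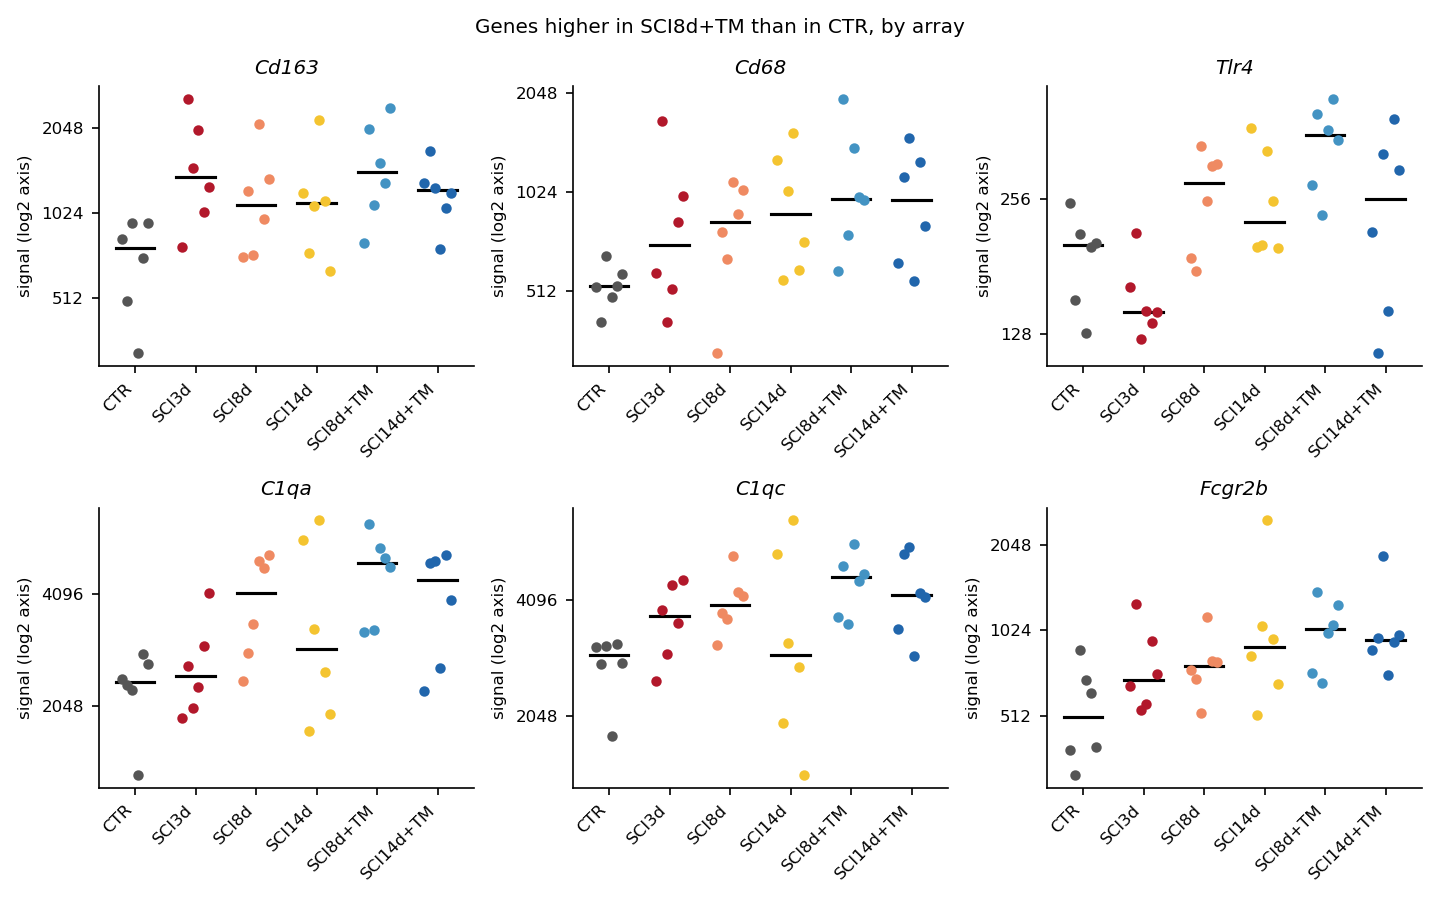
Signal of Cd163, Cd68, Tlr4, C1qa, C1qc and Fcgr2b on each of the 36 arrays, on a log2 axis, with bars at the medians of 6 arrays per group. The SCI8d+TM arrays lie above all control arrays for C1qa (3233 to 6273 against 1339 to 2828) and C1qc, and overlap the controls for the other 4 genes.

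Other genes of macrophages and their pathways were read beside the members. Over all probe sets, 6.48% were called higher in SCI8d+TM than in controls, and 3783 of 31042 were called in either direction. Of 29 other macrophage and monocyte genes measured, 3 were called higher in this comparison, all known from resident macrophages. They were Folr2, a folate receptor (0.98, adjusted p = 0.0112), Lyve1, a hyaluronan receptor that lymphatic vessels also carry (0.99, adjusted p = 0.0249), and Clec10a, a lectin (0.79, adjusted p = 0.0345). In the same comparison 1 was called lower, Cd36, a fatty acid transporter that muscle fibres and capillaries also hold (-1.41, adjusted p = 0.000669). Cd36 was also called lower in untrained SCI8d against controls (-1.26, adjusted p = 0.0035 in limma). The 29 genes had a median of 0.49 beside 0.08 over all probe sets. Of 7 other complement genes, C3ar1, the receptor of the C3a fragment, was called higher (1.46, SE 0.39, adjusted p = 0.0126). Of 4 other oxidase genes, Rap1a, a small GTPase found in most cells, was called higher (0.67, adjusted p = 0.000775), and 0 of 8 other genes of Fc receptor signalling were called. Rap1a was also called higher against controls in untrained SCI3d (0.68, adjusted p = 0.000215 in limma) and SCI8d (0.58, adjusted p = 0.00482). In SCI8d+TM against controls 3 of 5 red blood cell genes and 5 of 10 fibroblast genes were called higher too. In untrained SCI8d against controls these counts were 3 and 2. The mean log2 signal of the fibroblast list, relative to controls, was -0.78 to 0.86 in the control arrays against 0.66 to 1.004 in the SCI8d+TM arrays, and that of the red blood cell list was -0.50 to 0.64 against 0.67 to 2.70. Their part in the 6 calls was not tested.

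Earlier in the course, Adgre1 (F4/80), a surface receptor of mature macrophages, was 1 of 29 called lower at 3 days (-1.30, SE 0.39, adjusted p = 0.0170). Cd163 and Hmox1 were called higher. Over all probe sets, 5109 of 31042 were called at 3 days, of which 2241 were higher. From 3 days Adgre1 rose by 1.45 to day 8 (adjusted p = 0.0177) and by 1.68 to day 14 (adjusted p = 0.00359). Between 3 and 14 days 4 of the 29 were called higher, beside 7.99% of all probe sets. Besides Adgre1 these were Il1b (2.87, SE 0.97, adjusted p = 0.0443), Plek and Il34. Il1b was 75.9 to 3169 in controls, 80.8 to 349 in SCI3d and 104 to 10858 in SCI14d, and the groups overlapped. The oxidase regulator Rac2 was also called higher (0.97, adjusted p = 0.0152). The difference between days in Cd163 itself was -0.40 from 3 to 14 days and was not called.

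RT1-Bb, the beta chain of RT1-B, was followed apart because its signal fell into separate ranges within groups. On the first probe set, that of higher mean, it was 7.51 to 94.5 on 6 arrays and 276 to 4685 on the other 30. The low arrays were spread over the groups, with 2 in controls, 2 in SCI8d, 1 in SCI8d+TM and 1 in SCI14d+TM. On the second probe set, 19 arrays were at 3.51 to 69.4 and 17 at 942 to 4977. No array was under 100 on both, 19 were under 100 on the second alone, 6 on the first alone and 11 on neither. What separates these arrays was not tested. SCI3d (276 to 1294) and SCI14d (842 to 4379) had no low array on the first probe set, and their log2 difference was 1.92 (adjusted p = 0.261). The mean in SCI14d was 2.70 above controls, of which 2 were low (adjusted p = 0.166). On the second probe set the differences were -0.34 and -1.87.

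**Figure D5:**
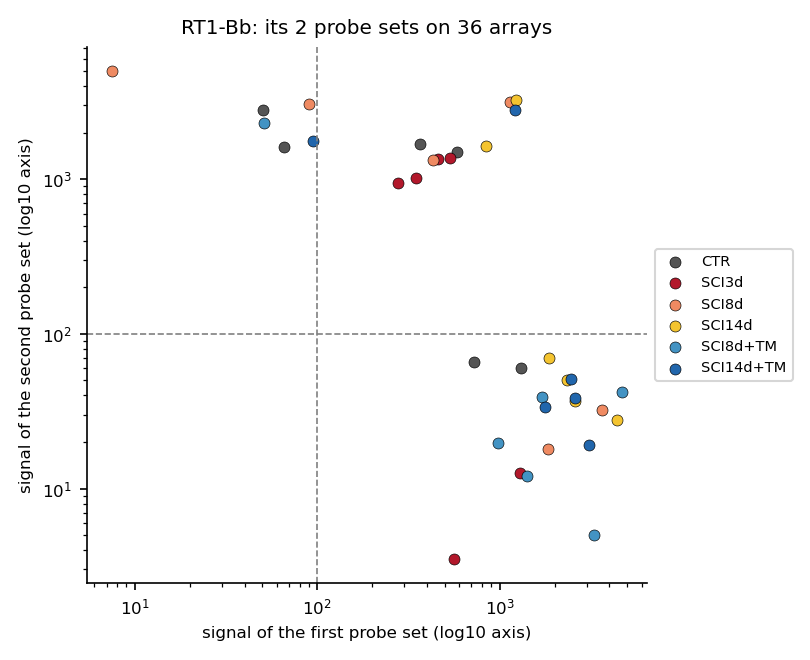
Signal of the 2 RT1-Bb probe sets on the 36 arrays, the first on the horizontal and the second on the vertical axis, both log10, 1 point per array and colours by group. Dashed lines mark a signal of 100; 6 arrays lie under it on the first probe set, 19 on the second and 0 on both.

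Within groups the markers varied together. Correlations were taken over the 36 arrays after each group's mean was removed, between each member and the mean of the others, and they describe arrays that share RNA and labelling. The median r was 0.77, with 14 members over 0.8, 18 from 0.5 to 0.8 and 3 under 0.5. Fcer1g (0.94), Aif1 (0.94), a calcium-binding protein of macrophages, and Cd53 (0.93) were highest. The lowest were Ncf1 (-0.22), an oxidase subunit, RT1-Bb (0.06) and Fcgr3a (0.31). Cd163 was at 0.53, Cd74 at 0.59 and C1qa at 0.74, below the median. The mean of the members had r of 0.84 with the 29 other macrophage genes, 0.88 with Fc receptor signalling, 0.58 with the fibroblast genes, 0.15 with neutrophil genes and -0.34 with both red blood cell and muscle genes.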

How the data were processed

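The 36 arrays were grouped by their labels. The intensity values are linear signals that the authors made with Microarray Suite 5.0 (MAS5 in the submitters' processing notes), scaled to 1 trimmed mean per array, and deposited in 1 table of 31099 probe sets with 0 columns of other samples. The deposited intensities were taken to log2 without an offset, and 57 control probe sets were left out. The amount of RNA labelled differs between the labels and the methods. Gene symbols came from the platform annotation (20826 probe sets with 1 symbol).

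A linear model of the 6 groups was used (limma 3.58.1 under R 4.3.3, 30 residual degrees of freedom and an intensity trend). Each comparison was adjusted by Benjamini and Hochberg over 31042 probe sets, and the fit was tested on simulated data. The members, the other gene lists and the rules were chosen with earlier results of these data known. Values are given for every called member and, in each role, the member of highest mean. From each other list, at most 4 called genes of smallest p per comparison are named. Within-group correlations of arrays were 0.907 to 0.943, and 0 pairs were identical. The number of arrays limits the precision. Promoter sequences came from RefSeq (GRCr8).

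Alternatives were quantile normalization, median centring, an offset of 32, leaving out the dimmest 40% of probe sets, no trend, only the groups compared, the methods' t-test with and without adjustment, the replicate number as a block, replicates 5 and 6 as a batch, leaving out the 3 arrays of high GAPDH ratio, array weights, other probe sets and their mean, and each array left out in turn. Outlying arrays were sought with Dixon's test (limit 0.625 for 6 arrays). Python 3.11.15 and matplotlib 3.10.9 drew the figures.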

Additional observations from a re-analysis of the deposited data

Results flagged for a closer look

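Dixon's test was run on log2 signals in 114 sets of 6 arrays, 1 for each described gene and group, and chance alone flags about 1 in 20 of such sets. It marked 7. In controls, replicate 4 was low for C1qa (1339, next 2260) and for C1qc (1819, next 2797), both of which enter the comparison with SCI8d+TM. SCI3d replicate 2 was high for Csf1r (3433, next 1563). Replicate 2 of SCI14d was low for Lyz2 (8114, next 15465), and replicate 3 of SCI14d+TM was high for Fcgr2b (1870, next 985). RT1-Bb was low on SCI8d+TM replicate 6 (51.1, next 984) and on SCI14d+TM replicate 1 (94.5, next 1207).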

How the results depend on the processing

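Of the alternatives to 29 gene results, 735 in all, 615 kept direction and side of the threshold, 90 lost a call, 26 gained one and 4 turned the direction. Those 4 were other probe sets with no call: RT1-Ba at 3 days against controls (0.0526), RT1-Ba between 3 and 8 days (-0.35 and -0.14 on 2 other probe sets) and RT1-Bb between 3 and 14 days (-0.34). The cause of these changes was not tested.

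The number of members called moved as follows. The share of all probe sets called moves with the setting too, so these counts are not a result about the members alone. With the unadjusted t-test that share was 27.3% in SCI8d+TM against controls, 20.2% in SCI8d, 16.9% in SCI14d and 14.6% in SCI14d+TM. For the other settings it is not given here. For SCI8d+TM against controls (6 as reported) they were 3 with median centring, 11 with the 2 groups alone, 13 with the unadjusted t-test, 10 without the 3 arrays of high GAPDH ratio and 11 with array weights. For SCI14d against SCI3d (5 as reported) they were 3 with quantile normalization, median centring or the 2 groups alone, 1 with the adjusted t-test, and 2 without the high GAPDH arrays or with array weights. For SCI8d against SCI3d (1 as reported) they were 3 without the dimmest 40% or with array weights, 2 with the 2 groups alone or without the high GAPDH arrays, 5 with the unadjusted t-test and 0 with the adjusted one. For SCI3d against controls (1 as reported) they were 3 with the 2 groups alone or the unadjusted t-test and 0 with the adjusted one. Where the reported count was 0, SCI8d had 4 with the unadjusted t-test and 1 with array weights, SCI14d 6 and 3, and SCI14d+TM 13 and 1, with 2 without the high GAPDH arrays. With 1 array left out, counts ran from 0 to 1 for SCI3d and SCI8d, 0 to 3 for SCI14d, 2 to 10 for SCI8d+TM, 0 to 3 for SCI8d against SCI3d and 2 to 9 for SCI14d against SCI3d. SCI8d+TM had 10 without its replicate 1, 9 without its replicate 3, and 2 or 3 without its replicates 2, 4, 5 or 6 or CTR replicates 2, 4 or 6. SCI14d against SCI3d had 9 without SCI3d replicate 2, and 2 or 3 without SCI3d replicates 1, 3, 4 or 5 or SCI14d replicates 4 or 5. SCI14d against controls had 2 without CTR replicate 3 and 3 without SCI14d replicate 2. SCI8d against SCI3d had 0 without SCI8d replicates 3 or 6, 3 without SCI8d replicates 1 or 2, and 2 without SCI3d replicate 6. SCI3d had 0 without CTR replicate 4, RT1-DMb in place of Cd163 without SCI3d replicate 2, and SCI8d had 1 without SCI8d replicate 1.

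With the replicate number as a block, 5 members were called in SCI8d+TM (C1qc at an adjusted p of 0.0639) and 4 between 3 and 14 days (Tlr4 at 0.0512), and no other count changed. Same-numbered arrays had residual correlations of -0.12 to 0.23 with a mean of 0.0092, and 10 of 36 arrays were closest to their own number. The labels name no pairing, and the numbers were not taken as pairs. At 6 rats a group, many differences of the size seen here lie near the threshold, and dim genes such as Itgam are measured least well.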

Other observations

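Within groups, the mean of the neutrophil genes varied little with that of the members (r of 0.15). Of 7 measured, 3 were above the 40th percentile. Their mean log2 signal relative to controls was -0.72 to 3.18 in SCI14d (median 1.83) and -1.66 to 0.06 in SCI8d (median -0.89), and within controls it ran from -1.59 to 2.88, with replicate 4 highest. At 14 days all 7 were higher on average than in controls (median 1.61, 0 called), as were 34 of the 35 members. Between 3 and 14 days Mmp9, a gelatinase of neutrophil granules, was called higher (2.63, SE 0.81, adjusted p = 0.0276). Its signal was low, at 3.73 to 48.7 in SCI3d (median 19.8) and 20.5 to 468 in SCI14d (144), and the groups overlapped. Of 12 T cell genes, Cd3g, a chain of the T cell receptor complex, was called lower at 3 days (-1.35, SE 0.41, adjusted p = 0.0178) and higher from 3 to 14 days (1.24, adjusted p = 0.0374). Its signal was low, at 136 to 183 in controls, 15.8 to 152 in SCI3d and 91.6 to 369 in SCI14d, and the groups overlapped. Cd5 was called higher between 3 and 8 days (1.33, adjusted p = 0.0361 in limma). Of all probe sets, 3.66% were called higher between 3 and 8 days and 7.99% between 3 and 14 days.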
